A study of Mus musculus with 4 samples.

Results

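Occupancy of total histone H3 along the autosomes was compared between 38B9 pro-B cells and untreated V6.5 embryonic stem (ES) cells. These are 2 of the 4 libraries in the series, 1 library a side, and they were chosen by their labels. 38B9, a mouse pro-B cell line, was grown in RPMI medium with 10% fetal calf serum and received no treatment. V6.5, an ES line of C57BL/6-129 background, was cultured on irradiated feeder fibroblasts, passaged off them onto gelatin before collection, and left untreated. SB431542-treated V6.5 cells (10 uM for 24 h) and C2C12 myotubes (48 h in 2% horse serum) serve below as comparison libraries. All 4 libraries came from sonicated whole cell extracts and 1 antibody lot against total H3. No input library was used here, so copies of a region and H3 recovered per copy cannot be told apart. The labels do not say whether a line is 1 clone, and each line stands for its cell type alone.

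Histone H3 is a core histone of every nucleosome, the unit that packs DNA, and an antibody against total H3 recovers DNA from chromatin of all states. Pro-B cells are early B-lineage cells in which the immunoglobulin heavy chain genes are being cut and rejoined, which removes the DNA between the joined segments. Chromosome 12 carries the mouse heavy chain genes towards its distal end, and chromosome 6 carries those of the kappa light chain. The reads are placed on mm8, for which no annotation was used, so bins are described by position and no gene was placed on them.

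Aligned positions were counted in neighbouring bins of 100 kb and 10 kb on chromosomes 1 to 19, each position and strand counted once. The pro-B library held 13015879 autosomal positions and the untreated ES library 13132855, against 13469179 for SB431542-treated ES cells and 12432118 for myotubes. Repeated reads made up 2.81% of the pro-B and 2.82% of the ES reads. A bin's ratio is its share of the pro-B autosomal total over its share of the ES total. The median log2 ratio of the bin's own chromosome was then subtracted, which gives the corrected ratio. With 1 library a side there is no replicate spread and no test. Intervals are exact conditional binomial intervals (95%) and cover counting error only, since reads amplified by PCR and carrying no molecular identifiers do not each stand for a molecule.

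Pro-B and ES cells differed within chromosomes by far more than the 2 ES libraries did. Over 23365 bins of 100 kb the corrected log2 ratio had an SD of 0.36, where counting alone gives 0.091. The same SD was 0.24 for myotubes and 0.11 for SB431542-treated cells, each against the same untreated ES library. Between the ES libraries the spread was thus 1.29 times that of counting, and between pro-B and ES cells 3.98 times. The pro-B distribution was lopsided, with its 1st percentile at -0.69 and its 99th at 1.00. In myotubes the same percentiles lay at -0.50 and 0.49.

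**Figure D1:**
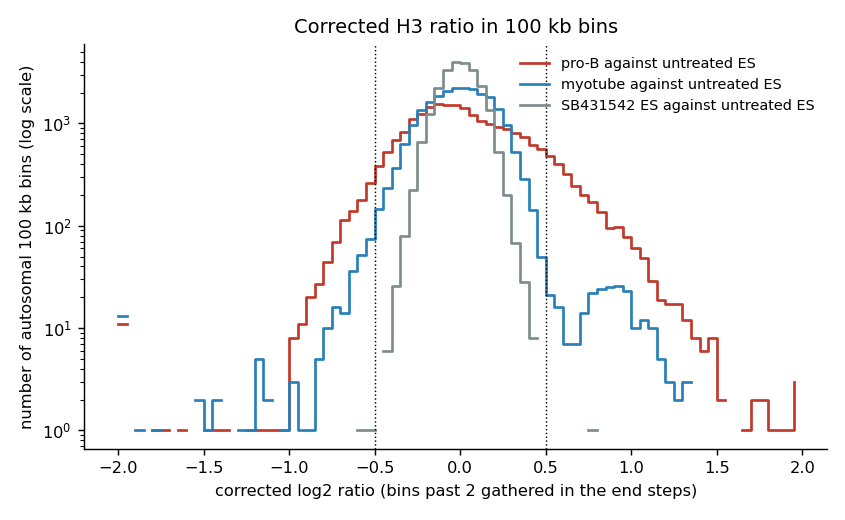
Number of autosomal 100 kb bins (log scale) by corrected log2 ratio to untreated ES cells, for pro-B cells, myotubes and SB431542-treated ES cells, with dotted lines at the size rule of 0.5 in either direction. The pro-B curve reaches further on both sides than the SB431542 curve, and it has its longer shoulder on the higher side.

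The spread shrank slowly as bins grew. The SD of the pro-B ratio was 0.47 in 10 kb bins and still 0.28 in bins of 1000 kb, where counting alone gives 0.028. SB431542-treated cells went from 0.28 to 0.067 over the same sizes. Neighbouring 100 kb bins had similar ratios. Across 23195 pairs of adjacent bins Pearson's r was 0.74, and it was 0.39 at 0.5 Mb, 0.23 at 1 Mb and 0.038 at 5 Mb. These pairs share libraries and local sequence composition, and r is given as a description.

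**Figure D2:**
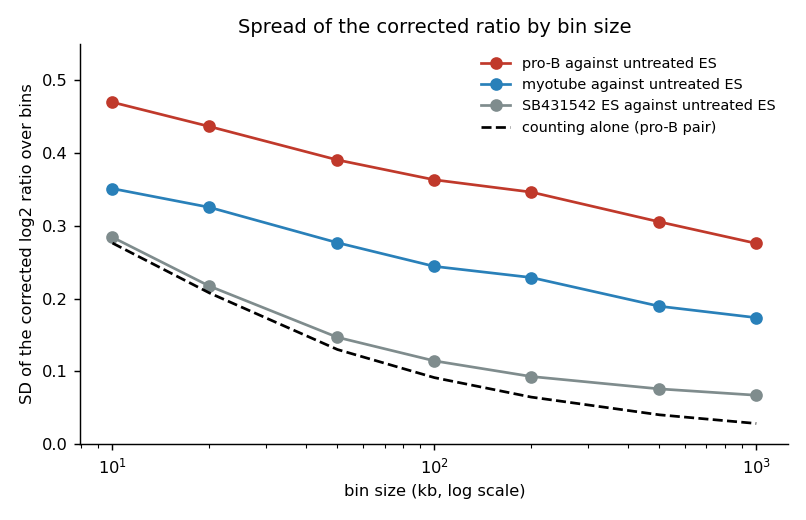
SD of the corrected log2 ratio over autosomal bins against bin size in kb (log scale), for pro-B cells, myotubes and SB431542-treated ES cells against untreated ES cells, with the SD that counting alone gives for the pro-B pair as a dashed line. The pro-B line stays well above counting at every size, from 0.47 at 10 kb to 0.28 at 1000 kb, while the SB431542 line is near counting at 10 kb and above it at 1000 kb (0.067 against 0.028).

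Bins were called by size, at a corrected log2 ratio of at least 0.5 in either direction, which is 1.41-fold. By this rule 2459 bins, or 10.5%, were higher in pro-B cells and 893, or 3.82%, were lower. The same rule called 0.985% higher and 1.04% lower in myotubes, and 1 bin higher and 2 lower in SB431542-treated ES cells (0.00428% and 0.00855%). Of the called pro-B bins, 73.4% were thus higher. This balance depends on the centre subtracted. With the chromosome mean in place of the median 62.8% were higher, and with no correction 49.3%. In the count with no correction, chromosome 8 alone held 500 of the 1907 lower bins and 13 of the 1854 higher ones.

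In the higher bins the other 3 libraries were near an ordinary level and pro-B cells were above it. Relative to the median bin of the own chromosome, the median level of these bins was 1.64 in pro-B cells, against 1.00 for untreated ES, 1.01 for SB431542-treated ES and 1.03 for myotube libraries. The lower bins had a median level of 0.740 in pro-B cells, with 1.11, 1.06 and 0.984 in the other libraries in the same order. The SB431542 and myotube levels did not enter the choice of bins. Counts on the 2 strands gave a further reading of the same libraries. Of 2489 bins higher by plus-strand reads, 2487 were above 0 on the minus strand, where their median log2 ratio was 0.63 against 0.66. Of 1157 bins lower by plus-strand reads, 1146 were below 0 on the minus strand, at a median of -0.51 against -0.60. Fewer also passed the size rule on the minus strand, 1815 of the 2489 higher bins (72.9%) and 592 of the 1157 lower bins (51.2%).

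At 2-fold the asymmetry was larger, at 2.83-fold it was gone, and past 4-fold it was turned, on few bins. There were 238 bins at least 2-fold higher (1.02%) and 22 at least 2-fold lower (0.0942%). At 2.83-fold there were 13 higher and 14 lower bins, and past 4-fold 3 higher and 11 lower ones. All 3 higher bins lay on chromosome 12, where the bins from 115600001 and 116200001 had corrected ratios of 4.22 and 5.06 and that from 116000001 had 2211 pro-B and 584 ES reads. The lowest of all, on chromosome 4 from 111600001, held 1 pro-B read against 211 in untreated ES cells, 221 in SB431542-treated cells and 2 in myotubes. Of the 22 bins 12 lay on chromosome 4, while the 238 were found on all 19 autosomes, with 25 on chromosome 6 and 24 on chromosome 12.

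Every autosome had bins in both directions. The share of higher bins ran from 8.46% on chromosome 2 to 14.1% on chromosome 13, so that no chromosome held most of them. Lower bins varied more, from 0.798% on chromosome 18 (7 of 877 bins) to 8.12% on chromosome 16 (77 of 948 bins). On chromosome 16 there were 84 higher bins, close to its 77 lower ones, and chromosome 14 had 116 higher and 86 lower. Chromosome 18 had 98 higher bins beside its 7 lower. These contrasts between chromosomes depend on the median subtracted. Without the correction chromosome 18 had 60 higher and 52 lower bins, chromosome 16 had 111 and 55, and chromosome 14 had 135 and 69. Chromosome 13 had the largest share called in either direction, 18.6%, and chromosome 8 the smallest, 10.3%.

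The chromosome medians removed by the correction lay between -0.18 and 0.06 on the log2 scale for all autosomes other than chromosome 8. Chromosome 8 was lower as a whole, at a median ratio of 0.739. Without the correction 500 of its 1238 bins would have been called lower and 13 higher. Relative to its own median, 18 were lower and 110 higher. The spread within chromosome 8 was the narrowest of all, with an SD of 0.31, and that of chromosome 4 the widest, at 0.48. Chromosome 4 had a few bins far below the rest, and its interquartile range of 0.40 was below the 0.57 of chromosome 14.

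**Figure D3:**
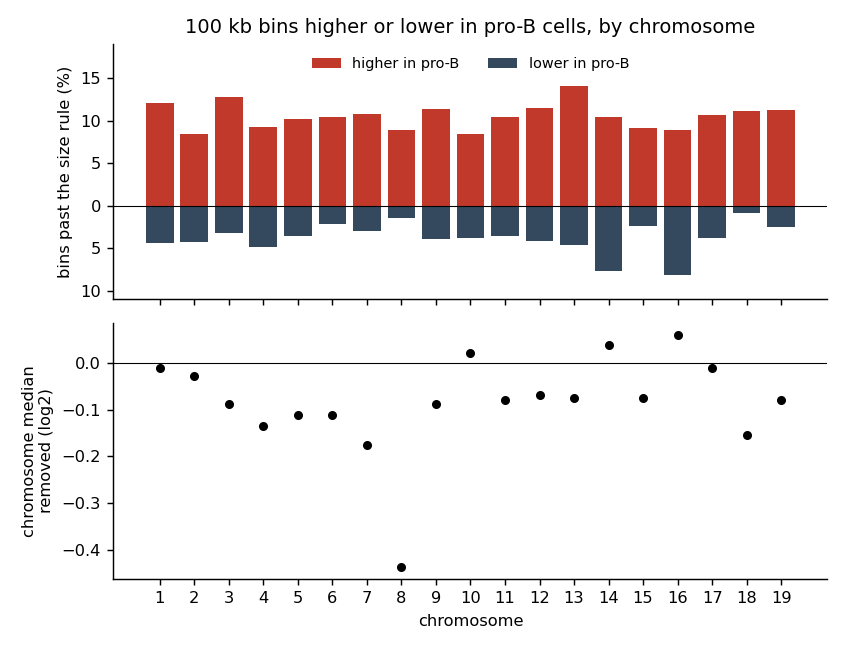
Upper panel, percent of 100 kb bins higher (upward bars) or lower (downward bars) in pro-B cells by chromosome; lower panel, the chromosome median log2 ratio that was removed. Higher bins make up 8.46% to 14.1% of every chromosome, and the removed median stands apart on chromosome 8. Lower bins are most frequent on chromosomes 14 and 16 once the median is removed.

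Called bins were often neighbours. Runs of at least 3 called bins in 1 direction numbered 251 for higher and 87 for lower bins, and they held 52.1% of the higher and 47.1% of the lower bins. As for single bins, this balance depends on the centre, and with no chromosome correction the runs numbered 174 higher and 193 lower. The higher runs covered 128 Mb and the lower runs 42.1 Mb, each set on all 19 autosomes. A run had a median of 4 bins in either direction, and 23 higher and 4 lower runs had at least 10. The median corrected ratio was 1.66 over higher runs and 0.641 over lower ones. Runs did not end in sharp steps as a set. The 2 bins on either side of a higher run had a median log2 ratio of 0.32, and those beside a lower run -0.39.

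Pro-B cells stood above all 3 other libraries in 249 of the 251 higher runs and below all 3 in 86 of the 87 lower runs. The myotube level lay below both ES levels in 70 of the 87 lower runs and above both in 151 of the 251 higher runs. How often this holds over all bins was not analysed here, and the choice of runs tilts these counts through untreated ES cells. Runs were chosen on the ratio of pro-B to untreated ES cells, so the levels of both libraries are pushed apart by the choice. The counts of runs with pro-B cells outside the other 3 libraries therefore follow in part from it. The SB431542 and myotube levels themselves did not enter the choice. Their medians were 0.997 and 1.02 in higher runs, and 1.06 and 0.971 in lower runs. Runs chosen on plus-strand reads kept their direction on the minus strand in 255 of 255 higher and 97 of 97 lower cases, and 242 and 80 of them also passed the size rule there.

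The highest ratio of any run was on chromosome 12 from 115900001 to 116600000. It held 5666 pro-B reads, 2024 in untreated ES cells, 1979 in SB431542-treated cells and 1512 in myotubes, a corrected ratio of 2.96 (2.81 to 3.12). The next, from 114100001 to 115800000, held 11424 pro-B reads against 4679, 4634 and 3933, a ratio of 2.58 (2.50 to 2.67). Myotubes were below untreated ES cells, at 0.777 and 0.875 times their level, and the pro-B library alone was high. The 2 runs belong together. The 100 kb bin between them held 140 pro-B and 56 ES reads and missed the minimum count.

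Along this end of chromosome 12 the ratio changed unevenly from bin to bin. The bin from 113900001 had 0 pro-B reads, where untreated ES cells had 172, SB431542-treated cells 160 and myotubes 143, and the next bin was at a log2 ratio of -0.21. From there the log2 ratio reached 1.87 in the bin from 114900001 and 2.33 in the bin from 116200001. It was down to 0.61 in the bin from 116500001 and 0.23 in the next. The ES level itself was low over both runs, at 0.514 and 0.489 of the chromosome's median bin. Reads with 2 reported places were frequent there, with 6827 pro-B and 1698 ES lines in the first-named run and 10827 and 4319 in the other.

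The longest higher run was on chromosome 6 from 67900001 to 70000000, 21 bins long. It held 9125 pro-B reads against 4941 in untreated ES cells, 5170 in SB431542-treated cells and 5267 in myotubes, at a ratio of 2.01 (1.94 to 2.08). As on chromosome 12, the ES level was low, 0.416 of the median bin, and lines with 2 places were many (7745 in pro-B and 3861 in ES cells). In these 3 runs pro-B cells reached levels of 1.56, 1.29 and 0.875, so on chromosome 6 a ratio of 2.01 went with a level under that of an ordinary bin.

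The other 7 named higher runs lay where ES cells had an ordinary level, between 0.952 and 1.25 of the median bin. On chromosome 11 a run from 44100001 to 45400000 held 16250 pro-B reads against 7809, 7912 and 7755, a ratio of 2.22 (2.16 to 2.28). On chromosome 4 a run from 101900001 to 102400000 held 5975 pro-B reads against 2873, 2921 and 3067, a ratio of 2.31 (2.20 to 2.41). SB431542-treated cells differed little from untreated ES cells in either run, at 1.01 times their level on chromosome 11 and 0.989 on chromosome 4. Myotubes stood at 1.10 and 1.13 times that level.

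Chromosome 4 had another such run from 44600001 to 45000000, at a ratio of 1.99 (1.90 to 2.09) and with the highest pro-B level of any run, 2.62. Chromosome 15 had one from 9400001 to 10000000 at 2.04 (1.96 to 2.13) and one from 62900001 to 63600000 at 2.05 (1.97 to 2.14). In the latter, myotubes held 5472 reads against 3777 in untreated ES and 7289 in pro-B cells, and relative to their own chromosome their level was 1.15 against an ES level of 0.952. That is 1.19 times the untreated ES cells, the highest myotube ratio of the 10 named higher runs. The last were on chromosome 1 from 178900001 to 179400000, at 2.06 (1.97 to 2.15), and on chromosome 7 from 132500001 to 132800000, at 1.98 (1.87 to 2.09). Pax5 and Ebf1, which encode B-lineage transcription factors, are carried by chromosomes 4 and 11, and Il7r, which encodes a cytokine receptor of early lymphoid cells, by chromosome 15. Whether any of these runs holds them was not analysed here, and these genes were thought of after the values were seen.

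**Figure D4:**
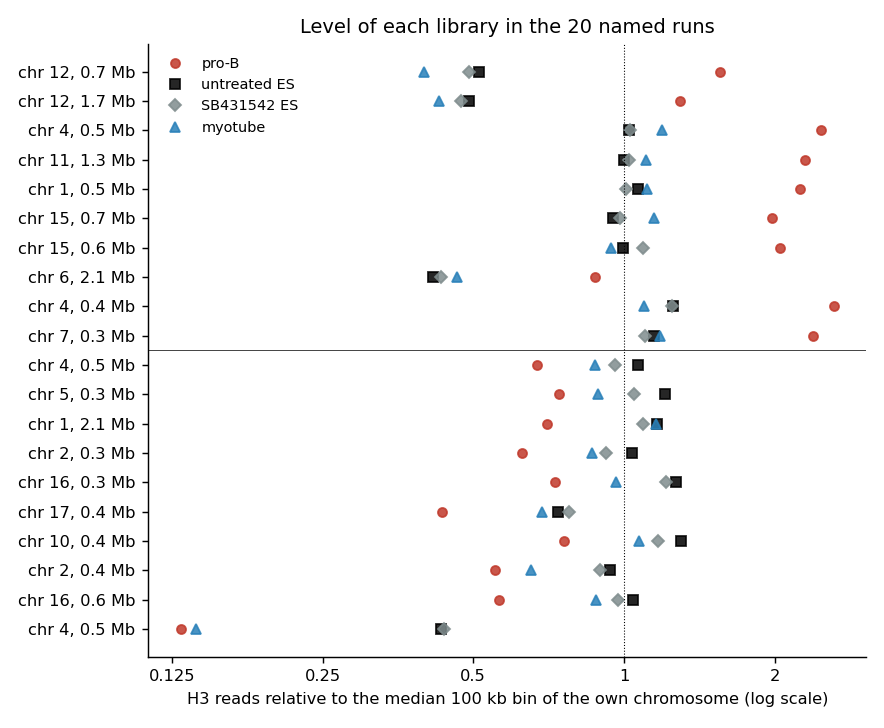
Level of each library in the 10 runs with the highest (above the line) and the 10 with the lowest corrected ratio, as H3 reads relative to the median 100 kb bin of the own chromosome (log scale), labelled by chromosome and length. Pro-B cells lie to the right of the other 3 libraries in all 10 upper runs and to the left in all 10 lower runs, and in the lowest run myotubes lie close to pro-B cells.

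Among the lower runs 1 stood far apart from the rest. On chromosome 4 from 113000001 to 113500000 pro-B cells had 315 reads, myotubes 361, untreated ES cells 1215 and SB431542-treated cells 1238. The corrected ratio was 0.287 (0.253 to 0.326) for pro-B cells, and for myotubes against the same ES library it was 0.316. All 4 libraries were below an ordinary level here, at 0.130 of the median bin in pro-B cells and 0.140 in myotubes, against 0.432 in untreated and 0.437 in SB431542-treated ES cells. Only 3 of its 10 kb bins reached the minimum count, so its finer structure could not be described.

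The other 9 named lower runs had ratios between 0.540 and 0.599. On chromosome 16 from 3500001 to 4100000 pro-B cells had 2001 reads against 3587 in untreated ES, 3427 in SB431542-treated and 2931 in myotube libraries, a ratio of 0.540 (0.511 to 0.571). On chromosome 2 from 172200001 to 172600000 the reads were 1201 against 2191, 2078 and 1421, a ratio of 0.565 (0.526 to 0.606). In the latter myotubes were also low, at 0.682 times the untreated ES cells. The myotube level lay below both ES levels in 9 of the 10 named lower runs, and pro-B cells were below myotubes in all 10. Both counts are tilted by the choice of runs on pro-B and untreated ES cells.

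The longest lower run was on chromosome 1 from 90300001 to 92400000, 21 bins long. It held 7815 pro-B reads against 13513 in untreated ES cells, 12891 in SB431542-treated cells and 13269 in myotubes. The corrected ratio was 0.588 (0.572 to 0.605), and its bins ran from -0.94 to -0.55 on the log2 scale. Myotubes stood at 0.993 times the ES level, so this run was low in the pro-B library alone. Of its 206 kept 10 kb bins 205 were below 0 and the remaining one was at 0.

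The lower runs left to name were on chromosome 10 from 69600001 to 70000000 at 0.568 (0.534 to 0.603), chromosome 17 from 13200001 to 13600000 at 0.571 (0.526 to 0.619) and chromosome 16 from 35300001 to 35600000 at 0.574 (0.535 to 0.615). Chromosome 2 had a further one from 168200001 to 168500000 at 0.577 (0.534 to 0.624), chromosome 5 one from 129400001 to 129700000 at 0.593 (0.550 to 0.638) and chromosome 4 one from 153100001 to 153600000 at 0.599 (0.563 to 0.636). SB431542-treated cells lay between 0.853 and 1.04 times untreated ES cells over all 10 lower runs, and between 0.938 and 1.08 times over the 10 higher ones.

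**Figure D5:**
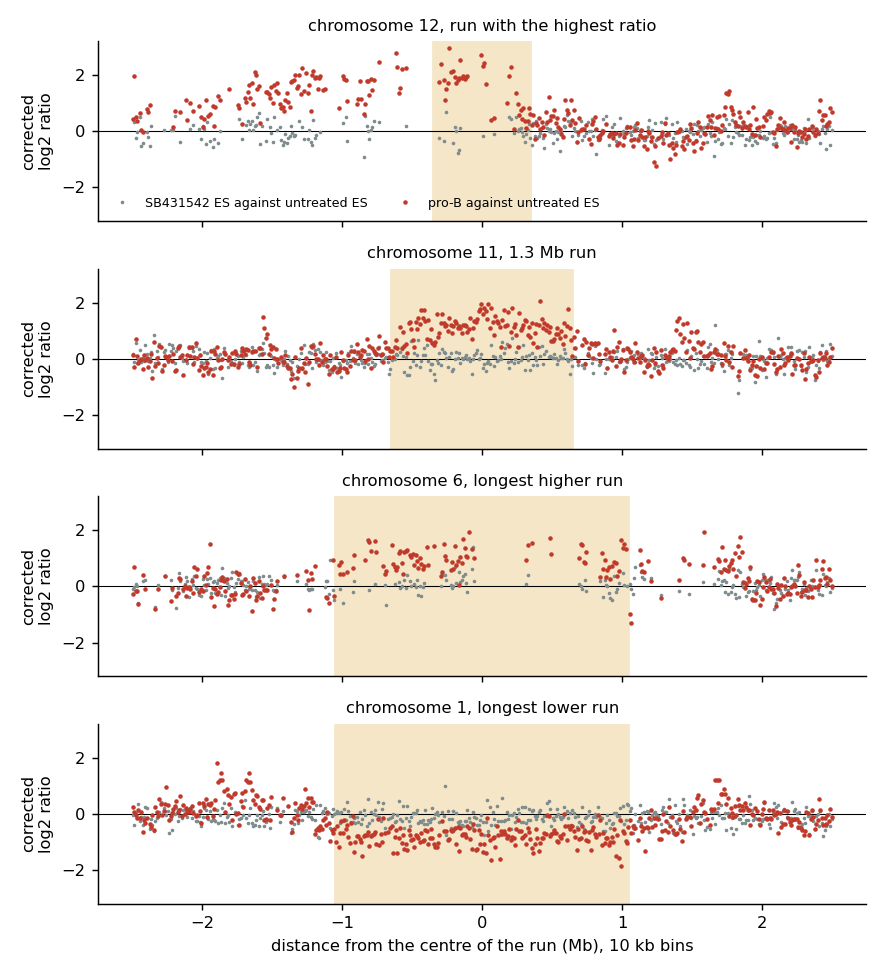
Corrected log2 ratio in 10 kb bins against distance in Mb from the centre of 4 named runs (shaded), for pro-B cells (red) and SB431542-treated ES cells (grey) against untreated ES cells; bins under the minimum count are missing. Red points lie above 0 across the runs on chromosomes 12, 11 and 6 and below 0 across that on chromosome 1. Grey points scatter near 0, though in the chromosome 1 run more of them lie below it, at a ratio of 0.926 for the whole run.

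At 10 kb, where a bin held a median of 55 pro-B and 60 ES reads, the size rule was a log2 ratio of 1, or 2-fold. Of 211285 bins 6201 were higher (2.93%) and 1820 lower (0.861%). In SB431542-treated cells 0.0637% were higher and 0.037% lower, and in myotubes 0.422% and 0.346%. In the bins higher in pro-B cells the median level was 2.22 in pro-B, 0.915 in untreated ES and 1 in SB431542-treated cells. In the lower bins it was 0.541, 1.17 and 1. The choice of bins thus pushed the untreated ES level away from that of the other ES library, which widens the 10 kb ratios. The higher 100 kb bins, 10.5% of all tested, held 76.5% of the higher 10 kb bins. The lower 100 kb bins, 3.82% of all tested, held 53.0% of the lower 10 kb bins. Since 10 kb bins are parts of the 100 kb bins, this overlap follows in part from the calls.

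Most 100 kb differences were spread over their 10 kb parts. The 100 kb bins were called on the sum of these parts, so parts going the same way follow in part from the call. No figure for bins not called is set beside them. All 10 parts were measured in 1700 of the 2459 higher 100 kb bins. Among these 1700, all 10 were above 0 in 63.6%, and a median of 6 parts passed a log2 ratio of 0.5. Among the 594 of 893 lower bins with all 10 parts measured, all 10 were below 0 in 80.6%, with a median of 7 parts past 0.5. When the most extreme part was left out, 71.5% of the higher and 70.2% of the lower 100 kb bins still passed the size rule. A minority of higher bins rested on few parts, since 4.18% had at most 3 parts past 0.5, against 0.673% of the lower bins.

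Called 10 kb bins mostly stood alone, but higher ones formed longer stretches. Of 4385 higher stretches 76.4% were 1 bin, 386 had at least 3, and the longest had 16. Of 1666 lower stretches 92.6% were 1 bin, 24 had at least 3, and the longest had 6. The longest higher stretch was on chromosome 4 from 95200001 to 95360000, with 2579 pro-B reads against 978 for untreated ES, 1024 for SB431542-treated ES and 1178 for myotubes, a ratio of 2.90 (2.70 to 3.13). The longest lower stretch was on chromosome 12 from 90150001 to 90210000, with 166 pro-B reads against 397, 350 and 383, a ratio of 0.438 (0.363 to 0.526).

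Outside the named runs, the highest 10 kb bin was on chromosome 1 from 175470001, with 51 pro-B and 9 ES reads and a wide interval (5.67, 2.76 to 13.1). In it SB431542-treated cells had 23 and myotubes 14 reads. The next 5 rested on more reads. On chromosome 18 the bin from 15350001 held 267 pro-B reads against 58, 61 and 60, a ratio of 5.06 (3.80 to 6.84), and the bin from 32540001 held 192 against 41, 51 and 66, a ratio of 5.15 (3.66 to 7.40). Those on chromosome 4 from 95340001 and 97580001 had 193 and 202 pro-B reads against 41 and 43 in ES cells, and that on chromosome 3 from 107940001 had 225 against 48. In these 5 bins the pro-B level was 3.62 to 5.04 times the median bin of the chromosome, and each lay in a 100 kb bin at a log2 ratio of at least 1.00.

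The lowest 10 kb bins were empty or nearly so in pro-B cells. On chromosome 11 the bin from 116570001 had 0 pro-B and 0 myotube reads, against 118 in untreated and 86 in SB431542-treated ES cells, which makes it at least 36.7-fold lower, taking 3 reads in the bin as the floor. The bin on chromosome 7 from 57710001 also had 0 pro-B reads, at least 24.3-fold lower than the 82 of untreated ES cells, but myotubes had 50. On chromosome 9 the bin from 41310001 held 1 pro-B read against 68, 83 and 62, a ratio of 0.0157 (0.000392 to 0.0904). Chromosomes 4, 6 and 19 had the others, from 121550001, 132610001 and 9250001, with 0, 0 and 1 pro-B reads against 64, 63 and 60, each with 0 myotube reads.

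Without the minimum on the mean count, 33 bins of 10 kb had 0 pro-B reads and at least 30 ES reads, and 0 bins had the reverse. They lay on 12 autosomes, with 13 on chromosome 4 and 5 on chromosome 6. SB431542-treated cells had 23 to 86 reads in them. In 24 of the 33 myotubes had at most 2 reads, and in the other 9 they had 26 to 82. These 9 were the bins empty in pro-B cells alone. They included chromosome 12 from 113880001 and from 113970001, chromosome 14 from 13960001, chromosome 16 from 36220001, chromosome 8 from 86380001 and chromosome 11 from 15190001. Lines with 2 reported places numbered 0 to 14 in pro-B cells and 0 to 39 in ES cells over the 33 bins. A count of 0 does not tell absent DNA from reads that found no single place.

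Myotubes set against SB431542-treated ES cells use neither library of the pro-B comparison, though the reference line is the same. Of 2448 bins of 100 kb higher in pro-B cells and measured in both, 32 were also higher in myotubes and 23 were lower. The 32 are 1.31% of the pro-B list, beside 0.993% of all bins higher in myotubes. They are 14.0% of the 228 myotube bins, beside 10.5% of all bins higher in pro-B cells. Of 890 lower bins 55 were also lower in myotubes and 5 were higher. The 55 are 6.18% of the pro-B list, beside 0.865% of all, and 27.8% of the 198 myotube bins, beside 3.82% of all. At 10 kb 28 of 5967 higher bins were also higher in myotubes (0.469%, beside 0.468% of all) and 37 were lower. Of 1788 lower 10 kb bins 48 were also lower (2.69%, beside 0.362% of all) and 3 were higher. Among bins at least 2-fold lower in pro-B cells, 12 of 21 measured in both were at least 2-fold lower in myotubes as well, where 0.128% of all bins were. Among the 230 measured bins at least 2-fold higher it was 1, where 0.265% of all bins were. Of all 22 bins at least 2-fold lower in pro-B cells 12 lay on chromosome 4, some of them side by side. These bins are therefore not separate observations.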

How the data were processed

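Per the file headers, the authors used Bowtie on mm8, allowing 2 mismatches in 36 seed bases, a mismatch quality sum of 70 and at most 2 places a read. Its version was not given in the sources used here. Per the labels' protocols, sonicated chromatin (about 500 bp) was precipitated, amplified over 18 cycles and size-selected by gel for 150 to 300 bp. Each deposited file lists 1 signed position per read, with no count or scaling by the authors, in sections read here as 1-place and 2-place reads. The libraries of both sides come from the same sequencing run per the file headers, and the SB431542 library from another.

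Distinct 1-place positions were counted in bins, 0.5 was added to each count, and shares of the autosomal total were compared. Bins needed a mean of at least 100 reads (100 kb, 23365 of 24634 bins) or 30 reads (10 kb, 211285 of 246252 bins) over both libraries. For the spread by bin size, the other sizes needed a mean of 1 read per kb. The SD from counting was computed by formula from the counts. Named are the 10 highest and 10 lowest runs, the longest run each way, the 6 highest and 6 lowest 10 kb bins outside them (at least 100 kb apart), the 10 kb bins empty on 1 side, and the chromosomes with the highest and lowest shares. The comparison, bin sizes and rules were chosen with earlier results of these data known. Calling was tested on simulated counts. Python 3.11.15, numpy 2.4.6, scipy 1.17.1 and pandas 2.3.3 were used. Genes, promoters and GC content were not analysed here, since the annotation at hand is of another build.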

Additional observations from a re-analysis of the deposited data

Results flagged for a closer look

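Lines with 2 reported places stayed outside the counts above, and they also differed between pro-B and untreated ES cells. Of 1299 autosomal 100 kb bins with a mean of at least 100 such lines, 59 had a pro-B share 2-fold or more above the ES share and 32 one 2-fold or more below it, after the same chromosome correction. Of the 59 higher bins 18 lay on chromosome 12 and 12 on chromosome 6. Unlike the 1-place counts, the counts of these lines kept repeats. On chromosome 8 the bin from 76200001 was higher in these lines alone, with 253 pro-B and 52 ES lines, while its 1-place reads were 361 against 643. It was not the only such bin. That on chromosome 14 from 7000001 had 739 against 224 lines, and 427 against 553 1-place reads. Both bins were picked after their values were seen.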

How the results depend on the processing

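No paired analysis was possible because each group has 1 library. Counts called, SDs and named runs were recomputed under alternatives, 165 values in all, and none of the 80 named-run ratios among them changed direction. In all 4 alternatives that remeasured them, 20 of 20 named runs passed the size rule, though 23 of 80 named-run ratios moved outside their counting interval. With the SB431542-treated library as reference 10 of 20 moved. Higher-run ratios then shifted both ways, while most lower-run ratios came closer to 1. The lower run on chromosome 5 went from 0.593 to 0.699, whereas that on chromosome 17 went from 0.571 to 0.547. Of the 20 most extreme runs chosen anew on plus-strand reads, 20 passed the rule on minus-strand reads. Without the chromosome correction the excess of higher over lower turned at 100 kb, with 1854 higher and 1907 lower bins and 174 higher and 193 lower runs. At 10 kb 3192 bins were then lower. Most autosomes had a median below 0, but chromosome 8 weighed most. It alone held 500 of the 1907 lower and 13 of the 1854 higher 100 kb bins. A looser size rule (0.3 for 100 kb, 0.5 for 10 kb) gave 5194 higher and 3328 lower 100 kb bins, 571 and 334 runs, and 31281 and 24152 bins of 10 kb. A stricter one (1 and 2) gave 238 and 22 bins of 100 kb, 9 runs and 1 run, and 107 and 17 bins of 10 kb. Both follow from the limit. Runs of at least 2 bins numbered 504 higher and 177 lower, and of at least 5 bins 92 and 38. At 10 kb, lower bins numbered 4639 with no minimum count and 951 with 5 added to each count, so this number depends on how low counts are treated. The share of called 10 kb bins that were higher was 77.3%, and it was 63.4% with no minimum count and 61.0% with no chromosome correction. The SD in 10 kb bins was 0.545 on the plus and 0.544 on the minus strand alone, with fewer reads a bin. All reads as deposited, 2-place reads, the SB431542-treated library as reference, the chromosome mean and shifted bin edges kept every such count within 1.5 times. Depth limits 10 kb bins most, where counting alone gives an SD of 0.28 on the log2 scale.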

Other observations

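Lower bins were more frequent towards both chromosome ends. Of 1791 bins in the first 10 Mb of sequence 7.04% were lower in pro-B cells, of 1841 in the last 10 Mb 6.30%, and of 19733 between them 3.30%. The shares of higher bins were 8.21%, 10.7% and 10.7% in the same order. The bins at the ends share chromosomes and neighbours, and no test was made.

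Bins were also sorted into 10 classes of near equal size by their level in the SB431542-treated library, which has no part in the pro-B ratio. The median corrected log2 ratio stayed between -0.03 and 0.07 in all classes. Lower bins made up 8.12% of the densest class and 1.46% to 4.58% of each other class. Higher bins made up 8.17% to 12.1% of every class. In higher bins repeated reads were 3.41% of pro-B and 2.65% of ES reads, in lower bins 2.21% and 2.73%, and in bins not called 2.71% and 2.85%. Repeats were left out of the counts, and their part in the result was not tested further than the recount with all reads.

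Long higher runs outside the ones named above included chromosome 14 from 92600001 to 94400000 at a corrected ratio of 1.60 (1.56 to 1.65) and chromosome 13 from 82700001 to 84300000 at 1.86 (1.81 to 1.91). Both were picked after their values were seen.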
